A study of Rattus norvegicus with 9 samples.

Results

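Expression of 8 genes of the endothelial surface and of vascular endothelial growth factor (VEGF) signalling was examined in a small muscular artery of normotensive and hypertensive rats. The genes were Vegfa, Flt1, Kdr, Tek, Tie1, Emcn, Pecam1 and Eng, and every probeset of the RAE230A array whose platform annotation gave one of these symbols was taken. Of the 10412 genes named on the array, 7 of the 8 had a probeset, 10 probesets in all. Tek, the gene of the angiopoietin receptor TIE2, had no probeset under that symbol and has no value here. RNA came from the first side branch of the saphenous artery of male rats aged 16 weeks, and each array held a pool from 2 to 3 rats. There were 3 groups of 3 arrays. WKY were untreated Wistar-Kyoto rats, the normotensive strain. ACTH were Wistar-Kyoto rats that received adrenocorticotropic hormone under the skin for 4 weeks from the age of 12 weeks, at 0.1 mg/kg/day in the labels, while the study's methods state another dose. SHR were untreated spontaneously hypertensive rats, a strain of its own, so that strain and blood pressure cannot be told apart. The WKY rats are labelled as untreated, so the hormone and its injection cannot be told apart either.

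Vegfa is the main ligand of blood vessel growth and is made by many cell types of a vessel wall, whereas its receptors VEGFR1 (Flt1) and VEGFR2 (Kdr) sit mainly on endothelial cells. VEGFR2 carries most of the growth signal, and VEGFR1, which binds the ligand more tightly, also acts as a trap for it. Tie1 and Tek encode the TIE receptors of the angiopoietins, Emcn encodes the surface sialomucin endomucin, Pecam1 an adhesion protein of endothelial junctions, and Eng endoglin, a co-receptor for ligands of the TGF-beta family.

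The values are MAS5 signals, an intensity in arbitrary units that cannot be set against the signal of another probeset. Arrays were scaled to a common mean by the authors, median signals were 52.2 to 57.8, and arrays of a group correlated at 0.951 to 0.979 over the kept probesets. Comparisons were made on log2 signals of the non-control probesets with the highest third-highest signal, as many as the study kept, for which that signal had to reach 44.3, and a probeset was called changed at an adjusted p under 0.05 (limma, Benjamini-Hochberg adjustment over all kept probesets). Errors of differences are standard errors, n = 3 arrays per group throughout. P-values are set against the spread between arrays of a group, which holds pools of rats and, within WKY and SHR, also scan days. Of the 10 probesets 7 were kept, 1 for each measured gene, while 2 further probesets of Flt1 and 1 of Vegfa were too dim. The 3'/5' signal ratio of GAPDH, a measure of RNA length, lay between 4.91 and 5.99 for WKY, 3.67 and 4.52 for ACTH and 3.57 and 5.16 for SHR. The same ratio of beta-actin lay between 9.77 and 13.6 for WKY, 8.37 and 9.68 for ACTH and 8.35 and 9.14 for SHR. It was higher in every WKY array than in any ACTH or SHR array. By that ratio RNA length and the difference from WKY cannot be told apart, and it was not used as a covariate. The arrays were scanned on 4 days, WKY 2 together with SHR 1 and SHR 2, the ACTH arrays together with SHR 3, and WKY 1 and WKY 3 each alone. Of the defining markers of endothelium 10 of 12 had a probeset and all 10 were kept, and the same held for 9 of 9 smooth muscle markers. Of 7 skeletal muscle markers 6 were too dim to be kept, only Acta1, also made in smooth muscle, being kept.

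The start regions of the genes are shown for the VEGF receptors and Emcn, whose signals rank first by size of difference between SHR and WKY. RefSeq start regions were found for 6 of the 8 genes, without an entry for Pecam1 and Tek. Each sequence is the 250 bases before the annotated transcription start on the GRCr8 assembly, on the strand of the gene, and capitals mark GGAA and its reverse complement TTCC, the core letters read by ETS transcription factors.
Emcn, chr2:228564289-228564538, + strand: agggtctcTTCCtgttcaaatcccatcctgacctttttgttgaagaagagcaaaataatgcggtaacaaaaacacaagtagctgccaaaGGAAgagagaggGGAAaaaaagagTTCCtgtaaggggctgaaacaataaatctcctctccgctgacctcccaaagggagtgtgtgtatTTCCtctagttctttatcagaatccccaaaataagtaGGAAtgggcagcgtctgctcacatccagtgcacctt
Flt1, chr12:12333180-12333429, + strand: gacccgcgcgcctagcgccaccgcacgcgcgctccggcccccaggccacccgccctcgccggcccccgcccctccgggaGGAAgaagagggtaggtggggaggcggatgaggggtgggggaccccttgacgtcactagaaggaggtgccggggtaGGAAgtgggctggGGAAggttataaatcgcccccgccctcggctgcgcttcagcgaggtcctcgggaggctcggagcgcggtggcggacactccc
Kdr, chr14:32571813-32572062, + strand: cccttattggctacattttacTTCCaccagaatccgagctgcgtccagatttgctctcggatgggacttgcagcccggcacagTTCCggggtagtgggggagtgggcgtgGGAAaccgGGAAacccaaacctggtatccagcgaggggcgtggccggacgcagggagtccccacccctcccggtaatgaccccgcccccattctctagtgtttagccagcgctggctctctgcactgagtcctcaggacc
The Emcn region held 6 such cores on both strands together, a number reached by 9.27% of 33469 rat start regions of the same length. Kdr held 4, reached by 34.7%, and Flt1 held 3, which is the median of all regions and reached by 55.5%. At least 1 core stood in 93.2% of all regions. The longer motif AGGAAG, which overlaps the core, was found at 2 positions in Emcn and at 2 in Flt1, and not in Kdr. Eng, which was not called in any comparison, also held 2, while Tie1 held 1 and Vegfa none. At least 2 stood in 5.76% of all regions and at least 1 in 29.5%. These letter matches describe the sequences and were not tested for binding.

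Expression of Emcn was significantly higher in SHR than in WKY, by 2.22-fold (adjusted p = 0.0167, limma). The call was lost in 8 of 21 other settings, and without the filter on low signals its adjusted p was 0.114. Flt1 was also called higher in SHR, than in WKY (3.27-fold) and than in ACTH (2.44-fold), but its probeset passed the filter on low signals only through its SHR arrays. All its WKY and ACTH signals lay below the filter's level, so that it had to be higher in SHR to be kept. The filter did not alter the size of the differences. It altered the keeping of the probeset, its p-values and its standard error, 0.24 with and 0.26 without the filter for SHR against WKY. Without the filter the Flt1 call against WKY stood at an adjusted p of 0.0490 and that against ACTH was lost, at 0.116 (limma). Kdr was 1.82-fold higher in SHR and 1.58-fold higher in ACTH than in WKY with no overlap of the arrays, but neither difference passed the adjusted threshold. The ACTH arrays of Vegfa lay above its WKY arrays, also without passing the threshold, and Pecam1, Tie1 and Eng overlapped in every pair of groups. In an extract of the whole wall, more endothelial cells and more RNA per cell cannot be told apart.

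For SHR against WKY, 2 of the 7 kept probesets were called and both were higher, where 2.04% of all kept probesets were called and 0.967% were called higher. The SHR arrays lay entirely above the WKY arrays for 3 of the 7 (Flt1, Emcn and Kdr), beside 9.72% of all kept probesets. All 7 had a positive log2 difference, and their median was 0.54, beside -0.0046 over all kept probesets. For ACTH against WKY none of the 7 was called by limma, beside 1.21% of all kept probesets called and 0.550% called higher, and 2 (Kdr and Vegfa) had an unadjusted p under 0.05. The same 2 had their ACTH arrays entirely above the WKY arrays, beside 10.7% of all kept probesets, and the median log2 difference was 0.35, beside 0.024. For SHR against ACTH 1 of the 7 was called, beside 3.40% called and 1.57% called higher. The SHR arrays lay above the ACTH arrays for 2 of the 7 (Flt1 and Emcn), beside 11.7%, and the median log2 difference was 0.24, beside -0.017. The SHR and ACTH comparisons share the WKY arrays. These counts and medians include Flt1, which had to be higher in SHR to be kept. Without it 1 of 6 (Emcn) was called for SHR against WKY and the SHR arrays lay above the WKY arrays for 2 of 6. For SHR against ACTH limma then called 0 of 6, with an unadjusted p under 0.05 for 2 (Emcn and Vegfa), and the SHR arrays lay above the ACTH arrays for 1 of 6 (Emcn).

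**Figure D1:**
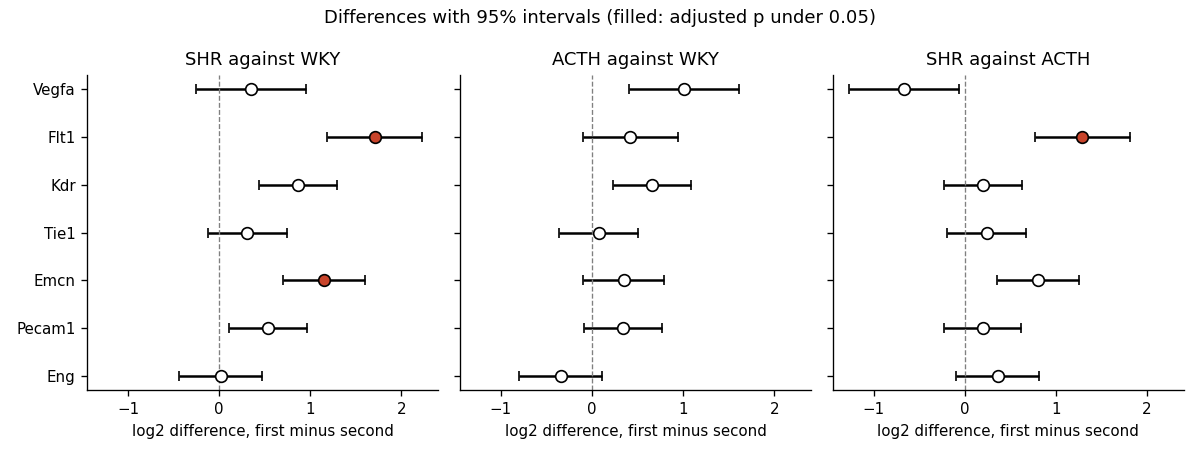
Log2 differences in signal (x axis) of the 7 kept probesets in the 3 comparisons, with 95% intervals of the limma fit, n = 3 arrays per group. Filled points passed an adjusted p of 0.05: Flt1 and Emcn for SHR against WKY, at 1.71 and 1.15, and Flt1 for SHR against ACTH, at 1.29.

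The ligand gene Vegfa (probeset 1373807_at) had signals of 87.2, 79.3 and 49.3 in the WKY arrays 1 to 3. The signals were 140.5, 123.2 and 161.3 in ACTH and 124.3, 89.2 and 62.8 in SHR. Every ACTH array lay above every WKY array, while SHR covered a range that overlapped both. The ACTH signal was 2.02-fold that of WKY, a log2 difference of 1.01 ± 0.27 with a 95% interval of 0.41 to 1.62 and an adjusted p of 0.132. SHR differed from WKY by 0.34 ± 0.27 (interval -0.26 to 0.95, adjusted p = 0.564) and from ACTH by -0.67 ± 0.27 (interval -1.27 to -0.06, adjusted p = 0.244). The GAPDH 3'/5' ratio was higher in every WKY than in every ACTH array, and with that ratio as a covariate the ACTH against WKY difference was 0.63 (adjusted p = 0.717) and the SHR against WKY difference -0.0139. With scan day as a block ACTH and WKY differed by 1.57. With array weights Vegfa was called for ACTH against WKY (1.05, adjusted p = 0.0435) and for SHR against ACTH (-0.81, adjusted p = 0.0395). The second probeset of the gene (1370081_a_at) was too dim to be kept, at 3.42 to 36.7 over the 9 arrays.

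The VEGFR1 gene Flt1 (1377113_at) had signals of 15.3, 26.7 and 16.2 in WKY. The signals were 21.2, 23.7 and 31.4 in ACTH and 54.3, 58.5 and 72.4 in SHR. All SHR arrays stood clear of the other 6, and WKY and ACTH overlapped, both below the signal of 44.3 that the filter required. The log2 difference was 1.71 ± 0.24 for SHR against WKY (interval 1.19 to 2.23, adjusted p = 0.00435, limma) and 1.29 ± 0.24 for SHR against ACTH (interval 0.77 to 1.81, adjusted p = 0.0160). ACTH and WKY differed by 0.42 ± 0.24, with an interval of -0.10 to 0.94 and an adjusted p of 0.539. The adjusted p for SHR against WKY was at most 0.0226 without any single array. Those fits used the probesets kept with all arrays, for which Flt1 had to be higher in SHR. They therefore cannot show whether the call is robust. Arrays were not left out of the fit without the filter, where the adjusted p was 0.0490 (limma). The SHR against WKY call was lost without moderation of the variance (0.0611). With scan day as a block the difference was 1.08. The call against ACTH was lost when ACTH 1, ACTH 2, SHR 2 or SHR 3 was left out, at adjusted p of 0.0764, 0.0577, 0.0529 and 0.0605.

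The other Flt1 probesets did not give the same picture. The probeset 1370492_a_at had 15.2, 17.8 and 20.1 in WKY, 22.7, 22.1 and 26.1 in ACTH and 24.2, 40.3 and 27.7 in SHR. Its WKY arrays were the lowest 3 of the 9, and ACTH and SHR overlapped. In a fit of all 15866 non-control probesets it differed by 0.77 ± 0.22 between SHR and WKY (adjusted p = 0.281, limma), where 1377113_at was at 1.71 ± 0.26 (adjusted p = 0.0490). The probeset 1369087_at had 26.1, 16.7 and 49.9 in WKY, 37.6, 30.1 and 28.6 in ACTH and 41.6, 21.7 and 20.3 in SHR. Its groups overlapped throughout, with a difference of -0.08 ± 0.43 between SHR and WKY in the same fit (adjusted p = 0.962). Both lay near or below the signal the filter required.

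The VEGFR2 gene Kdr (1367948_a_at) had signals of 78.5, 95.5 and 83.4 in WKY. The signals were 145.8, 120.2 and 141.0 in ACTH and 204.8, 121.8 and 151.7 in SHR. All ACTH and all SHR arrays lay above all WKY arrays, and ACTH and SHR overlapped. Against WKY the log2 difference was 0.87 ± 0.19 in SHR (interval 0.44 to 1.29, adjusted p = 0.0507, limma) and 0.66 ± 0.19 in ACTH (interval 0.23 to 1.09, adjusted p = 0.165). SHR and ACTH differed by 0.21 ± 0.19, with an interval of -0.22 to 0.63 (adjusted p = 0.642). Kdr was called for SHR against WKY when SHR 2, the lowest SHR array, was left out (1.04, adjusted p = 0.0333) and under 4 other settings.

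Of the TIE receptors, Tie1 (1389324_at) had signals of 196.1, 309.0 and 243.0 in WKY. The signals were 262.1, 272.9 and 239.1 in ACTH and 245.6, 322.8 and 354.3 in SHR. The groups overlapped in every pair, and the WKY arrays alone covered the whole range of ACTH. Log2 differences were 0.31 ± 0.20 for SHR against WKY (interval -0.12 to 0.74, adjusted p = 0.462, limma) and 0.07 ± 0.20 for ACTH against WKY (interval -0.36 to 0.51, adjusted p = 0.927). SHR against ACTH was at 0.24 ± 0.20 (interval -0.20 to 0.67, adjusted p = 0.588). The ACTH difference turned to -0.0890 without WKY 1.

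Among the surface proteins, Emcn (1372587_at) had signals of 186.2, 237.6 and 134.2 in WKY. The signals were 225.9, 222.1 and 243.2 in ACTH and 460.1, 398.6 and 354.8 in SHR. All SHR arrays lay above all others, and the ACTH arrays lay close together within the upper range of WKY or just above it. The log2 difference was 1.15 ± 0.20 for SHR against WKY (interval 0.70 to 1.60, adjusted p = 0.0167, limma) and 0.35 ± 0.20 for ACTH against WKY (interval -0.10 to 0.79, adjusted p = 0.555). SHR against ACTH was at 0.80 ± 0.20 (interval 0.36 to 1.25, adjusted p = 0.0596), which was called in 9 of 21 other settings, as without WKY 2 or WKY 3 (0.0353 and 0.0276). The call against WKY was lost without WKY 1, SHR 1 or SHR 2, at adjusted p of 0.0522, 0.0620 and 0.0614, with log2 differences of 1.05 to 1.17. With the GAPDH ratio as a covariate the difference was 1.15 at an adjusted p of 0.178. With scan day as a block the difference was 0.85. The call against WKY was also lost over all non-control probesets (0.114), with the groups compared alone (0.0615) and without moderation of the variance (0.0965).

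Pecam1 (1371545_at) had signals of 151.0, 131.4 and 121.5 in WKY. The signals were 148.7, 182.1 and 181.0 in ACTH and 211.0, 237.0 and 147.1 in SHR. The lowest array of ACTH and of SHR lay just below the highest of WKY, so the groups overlapped by 1 array each. Log2 differences from WKY were 0.54 ± 0.19 in SHR (interval 0.11 to 0.96, adjusted p = 0.208, limma) and 0.34 ± 0.19 in ACTH (interval -0.08 to 0.77, adjusted p = 0.541). SHR against ACTH was at 0.20 ± 0.19 (interval -0.23 to 0.62, adjusted p = 0.661).

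Eng (1372579_at) had signals of 157.5, 202.4 and 146.9 in WKY. The signals were 111.7, 151.2 and 135.7 in ACTH and 132.6, 173.9 and 210.2 in SHR. The groups overlapped in every pair, and Eng was the only one of the 7 whose mean log2 signal was lower in ACTH than in WKY. SHR differed from WKY by 0.02 ± 0.20 (interval -0.44 to 0.47, adjusted p = 0.978, limma), and the difference ran from -0.14 to 0.19 with 1 array left out. ACTH differed from WKY by -0.34 ± 0.20 (interval -0.80 to 0.11, adjusted p = 0.564), and SHR from ACTH by 0.36 ± 0.20 (interval -0.09 to 0.81, adjusted p = 0.410).

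**Figure D2:**
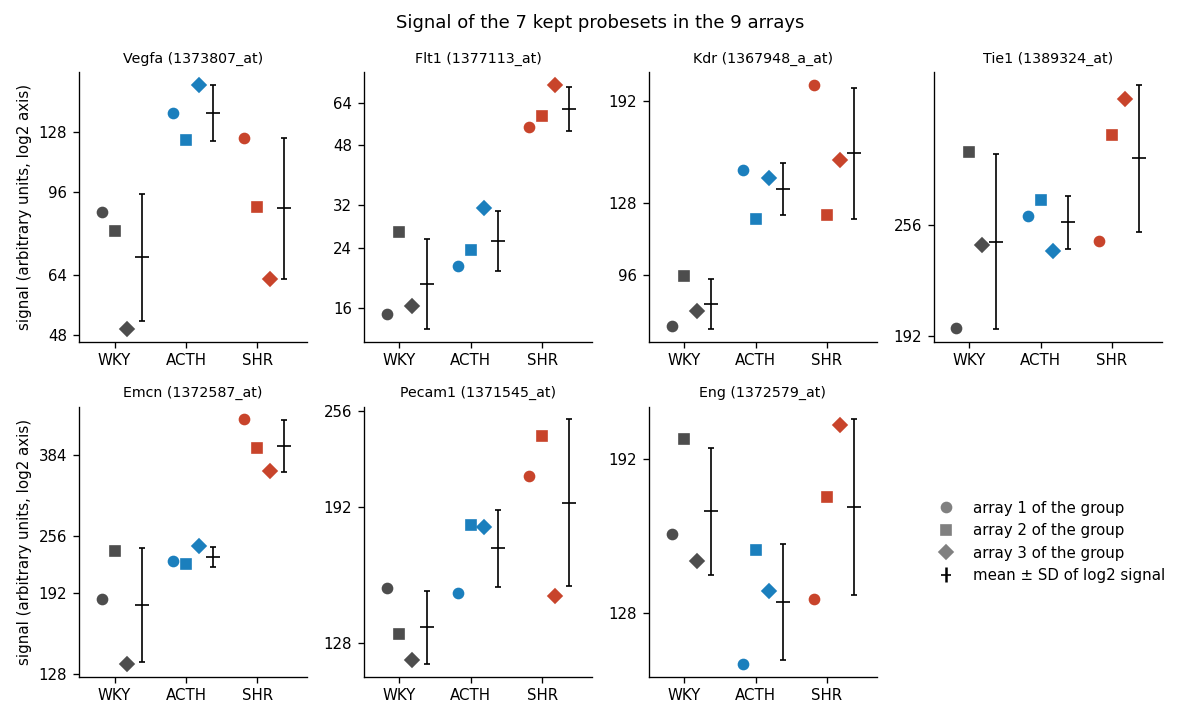
Signal of the kept probeset of each measured gene (y axis, arbitrary units, log2 scale, a separate range in each panel) in the 3 WKY, 3 ACTH and 3 SHR arrays, with the mean ± SD of log2 signals at the right of each group. Flt1 and Emcn are highest in the SHR arrays (54.3 to 72.4 and 354.8 to 460.1), Kdr is lowest in the WKY arrays (78.5 to 95.5), and Tie1 and Eng overlap in all groups.

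In order of mean log2 signal the groups ran WKY, ACTH, SHR for Flt1, Kdr, Tie1, Emcn and Pecam1, with neighbours apart beyond the threshold only for ACTH and SHR in Flt1. The order was WKY, SHR, ACTH for Vegfa and ACTH, WKY, SHR for Eng, with no neighbours apart. Within the day on which SHR 1, SHR 2 and WKY 2 were scanned, SHR lay above that single WKY array by 0.85 for Emcn, 1.08 for Flt1, 0.72 for Kdr and 0.77 for Pecam1, while Vegfa was at 0.41, Tie1 at -0.13 and Eng at -0.41. Within the day of the ACTH arrays, SHR 3 lay above ACTH by 1.53 for Flt1, 0.67 for Eng, 0.62 for Emcn, 0.46 for Tie1 and 0.17 for Kdr, while Vegfa was at -1.16 and Pecam1 at -0.21. Pecam1, Vegfa, Tie1 and Eng thus had opposite signs on these days, but the former day compared SHR with WKY and the latter SHR with ACTH. With scan day as a block none of the 7 was called in any comparison, at 3 residual degrees of freedom. No day held both ACTH and WKY arrays, so that comparison is linked only through the SHR arrays when scan day is a block. It was then 0.97 for Pecam1 and -1.09 for Eng.

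Across the 9 arrays, log2 signals of Emcn and Flt1 followed each other most closely (r = 0.92), followed by Emcn with Kdr (0.78) and Emcn with Pecam1 (0.74). The lowest were Eng with Vegfa (-0.62) and Kdr with Eng (-0.29). These are descriptions over 9 arrays that share their groups. Among 7713 probesets of other genes, the pattern most like that of Emcn was shown by Prps2 (r = 0.98), Serping1 (0.98) and Cfap20 (0.97). For Flt1 the closest were Minpp1 (0.95), Ace (0.95) and Creg1 (0.94), and for Kdr Rasgrp3 (0.97), Dusp6 (0.95) and St13 (0.93). Pecam1 was followed by Eif3j (0.94), Polb (0.94) and Bcap31 (0.92), and Tie1 by Prelp (0.94), Klhl22 (0.94) and Glrx5 (0.91). Eng was followed by Xrcc1 (0.95), Capn10 (0.94) and Bst2 (0.93), and Vegfa by Jun (0.96), Ctsl (0.95) and Ccng2 (0.94).

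Markers of endothelium did not all run with the receptors. The summed signal of the 6 markers that are members (Flt1, Kdr, Tie1, Emcn, Pecam1, Eng) lay between 745 and 1003 in the WKY arrays, between 915 and 972 in the ACTH arrays and between 1290 and 1313 in the SHR arrays. The summed signal of the 4 others (Vwf, Cldn5, Esam, Nos3) lay between 3351 and 3941 in the WKY arrays, between 2650 and 3147 in the ACTH arrays and between 2622 and 3097 in the SHR arrays. The first sum was thus highest in every SHR array and the second in every WKY array, but the genes of neither sum moved together. In the first, mean signals in WKY and SHR were 186 and 404 for Emcn and 85.8 and 159 for Kdr. Flt1, kept only through its SHR arrays, was at 19.4 and 61.7. Pecam1 was at 135 and 198, Tie1 at 249 and 308 and Eng at 169 and 172, each overlapping in every pair of groups. In the second sum Vwf had a mean signal of 1217 in WKY and 515 in SHR, and Cldn5 of 1137 and 970. Esam, a junction protein, was at 1155 in WKY and 1251 in SHR (log2 difference 0.12 ± 0.14, adjusted p = 0.722, limma), and Nos3, the endothelial nitric oxide synthase, at 98.1 and 123 (0.27 ± 0.28, adjusted p = 0.666), both with overlapping arrays. All 10 together reached 4315 to 4686 with WKY, 3566 to 4119 with ACTH and 3930 to 4387 with SHR, with no marker at 0.

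Markers of other cells also differed between the groups. Of 9 macrophage markers 7 were measured, with a sum between 448 and 1327 for WKY, 1570 and 2379 for ACTH and 1018 and 1590 for SHR, and the complement gene C1qb as low as 1.33 on its dimmest array. All 4 lymphatic markers together gave between 85.2 and 142 for WKY, 248 and 344 for ACTH and 168 and 224 for SHR, of which Flt4 and Prox1 were too dim to be kept. Pericyte markers, 5 of 5, summed to between 2413 and 2625 for WKY, 1727 and 1866 for ACTH and 1865 and 2035 for SHR. That sum includes Rgs5, which the paper reports as lower in both models and describes as a marker of arterial smooth muscle. Smooth muscle markers, 9 of 9, overlapped between groups at 25550 to 30426, 26010 to 27744 and 28044 to 29344. For 5 fibroblast markers the sums were 10032 to 11643, 7588 to 9219 and 9850 to 12414, for 7 of 9 adipocyte markers 983 to 1074, 955 to 1144 and 895 to 1037. For 3 of 5 Schwann cell markers they were 153 to 311, 231 to 317 and 201 to 231, for 2 of 4 red cell markers 199 to 309, 333 to 459 and 351 to 719, and for 7 skeletal muscle markers, led by Acta1, 525 to 632, 744 to 815 and 937 to 1030. The part of these cell types in the differences of the VEGF receptors and Emcn was not tested.

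**Figure D3:**
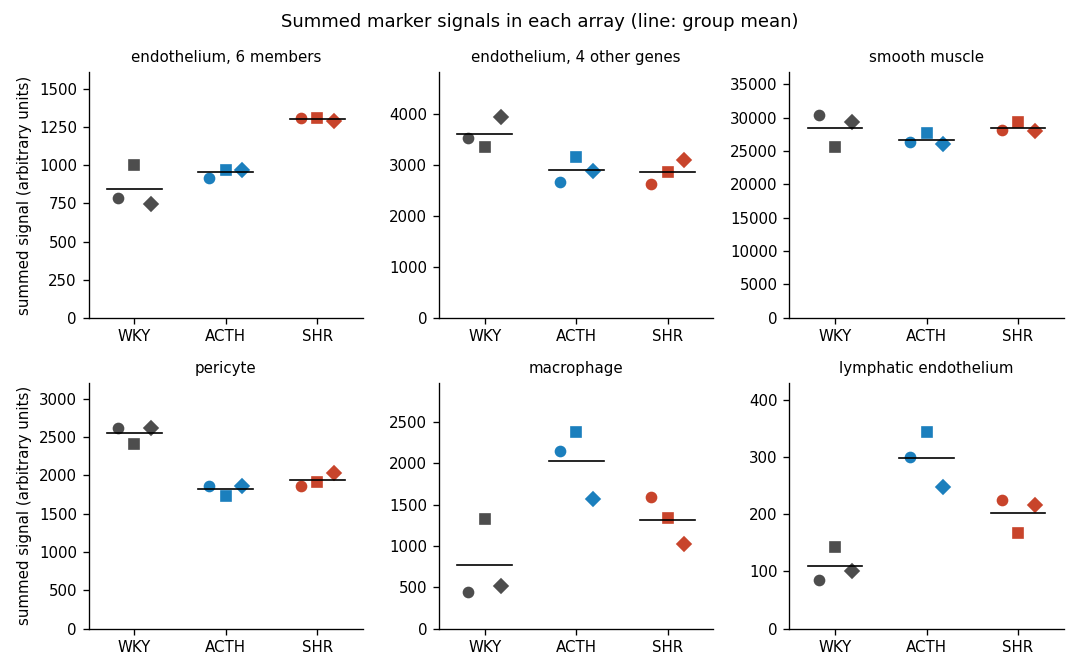
Summed signal (y axis from 0, arbitrary units) of marker genes in each array, by group, with a line at the group mean. The sum of the 6 endothelial markers that are members is highest in SHR (1290 to 1313), though Pecam1, Tie1 and Eng overlap between SHR and WKY. The sum of the 4 other endothelial markers, which Vwf and Cldn5 but not Esam and Nos3 follow, is highest in WKY (3351 to 3941). Macrophage and lymphatic markers are lowest in WKY except for the macrophage sum of WKY 2 at 1327.

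A list of 80 other endothelial and angiogenic gene symbols was set beside the members, of which 64 had a probeset and 52 a kept one, 68 kept probesets in all. For SHR against WKY 6 of the 68 were called higher and 2 lower, a share of 11.8% beside the 2.04% of all kept probesets given above. For ACTH against WKY 3 were called higher and none lower, or 4.41%, beside 1.21% of all kept probesets. For SHR against ACTH 6 were higher and 2 lower, or 11.8%, beside 3.40%. Median log2 differences were 0.15, 0.18 and 0.11 in the same order, beside -0.0046, 0.024 and -0.017 over all kept probesets. The counts and medians for both comparisons with WKY include the Cav1 probeset 1370131_at. It passed the filter only through its ACTH and SHR arrays, so it had to be higher there to be kept. With the GAPDH ratio as a covariate limma called 0 of the 68 for SHR against WKY, 0 for ACTH against WKY and 10 for SHR against ACTH, and with scan day as a block it called 1, 0 and 1.

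No VEGF ligand or co-receptor was called, among 6 kept probesets of 4 genes. With 1.21% to 3.40% of all kept probesets called, 0 of 6 does not set these genes apart. Of these, Nrp1 (1370570_at), the co-receptor that presents VEGF to VEGFR2, differed by 0.66 ± 0.27 between SHR and WKY (adjusted p = 0.254, limma) and by 0.37 ± 0.27 between SHR and ACTH (adjusted p = 0.532). Its second probeset 1373577_at went the other way, at -0.11 ± 0.24 (adjusted p = 0.861) and -0.66 ± 0.24 (adjusted p = 0.192), with every ACTH array above every SHR array. Of the angiopoietin axis, Angpt2, a TIE2 ligand that can oppose its activation, was higher in SHR than in ACTH by 0.62 ± 0.14 (adjusted p = 0.0396). Its signals were 615 to 794 in SHR, 429 to 475 in ACTH and 625 to 664 in WKY, so that the ACTH arrays stood lowest. That call was lost without any 1 array other than WKY 1, at adjusted p of 0.0518 to 0.159. Ptprb, the phosphatase that acts on TIE2 and VEGFR2, was at 0.16 ± 0.17 for SHR against WKY (adjusted p = 0.681).

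In the TGF-beta group Bmp4, a growth factor of the vessel wall, fell by 1.10 on the log2 scale from ACTH to SHR (SE 0.15, adjusted p = 0.00359, limma). Its signals were 136, 115 and 117 in SHR, 276, 263 and 248 in ACTH and 186, 185 and 149 in WKY, with no overlap between any groups. The receptor Tgfbr1 was at -0.51 ± 0.31 for SHR against WKY (adjusted p = 0.442). None of the 4 kept Notch probesets was called, which does not set them apart at 1.21% to 3.40% called over all kept probesets. The ligand Jag1 was at -0.31 ± 0.27 for SHR against WKY (adjusted p = 0.603).

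Among junction and surface genes, 1 of 15 kept probesets was higher and 1 lower in SHR than in WKY. The share called was 13.3%, beside 2.04% of all kept probesets. Cd93, a lectin-like surface protein of endothelium, had signals of 309, 284 and 255 in WKY, 388, 385 and 379 in ACTH and 746, 599 and 526 in SHR. The 3 groups did not overlap, and Cd93 was higher in SHR by 1.13 ± 0.16 against WKY (adjusted p = 0.00435, limma) and by 0.68 ± 0.16 against ACTH (adjusted p = 0.0417). The call against WKY held without any single array, while that against ACTH was lost without any 1 array other than WKY 1 and SHR 3, at adjusted p of 0.0510 to 0.149.

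Icam2, an adhesion protein for leukocytes, gave opposite directions with its probesets. With 1390310_at it was lower in SHR by -1.73 ± 0.31 against WKY (adjusted p = 0.0190, limma) and by -1.63 ± 0.31 against ACTH (adjusted p = 0.0205), from signals of 20.1 to 50.8 in SHR and 80.2 to 135 in the other arrays. With 1389235_at the differences were 0.44 ± 0.16 (adjusted p = 0.226) and 0.19 ± 0.16 (adjusted p = 0.616). The first call was lost without WKY 3 (0.0727), and the second without ACTH 1, ACTH 2 or SHR 3 (0.0744, 0.0736 and 0.0532). Mcam was at 0.19 ± 0.15 for SHR against WKY (adjusted p = 0.564). The tight junction gene Cldn5 lay between 1043 and 1295 for WKY, 755 and 784 for ACTH and 921 and 1003 for SHR. Its groups did not overlap, with log2 differences from WKY of -0.56 ± 0.13 in ACTH (adjusted p = 0.0973) and -0.22 ± 0.13 in SHR (adjusted p = 0.439).

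Erg, an ETS transcription factor of endothelial cells, was the only one of 14 kept probesets of its group that was called. The share called was 7.14% for SHR against WKY and for SHR against ACTH, beside 2.04% and 3.40% of all kept probesets. Signals of Erg were 95.7, 83.3 and 95.4 in WKY, 107, 107 and 101 in ACTH and 182, 209 and 155 in SHR. Again the groups did not overlap, and Erg was higher in SHR by 0.99 ± 0.15 against WKY (adjusted p = 0.00645, limma) and by 0.78 ± 0.15 against ACTH (adjusted p = 0.0185). The call against ACTH was lost without ACTH 1, ACTH 2, ACTH 3 or SHR 2, at 0.0764, 0.0571, 0.0844 and 0.0731. Epas1, an oxygen-sensing factor, was at -0.38 ± 0.18 for SHR against WKY (adjusted p = 0.315).

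Of the anticoagulant, vasoactive and other endothelial genes, 4 of 23 kept probesets were higher and 1 lower in SHR than in WKY. The share called was 21.7%, beside 2.04% of all kept probesets. It counts Cav1 (1370131_at), which passed the filter only through its ACTH and SHR arrays and had to be higher there to be kept. Tfpi, the inhibitor of the tissue factor pathway (1368323_at), had 38.6, 46.6 and 36.4 in WKY, 61.8, 36.5 and 55.8 in ACTH and 143, 123 and 113 in SHR. The SHR arrays stood above all others, by 1.64 ± 0.21 against WKY (adjusted p = 0.00261, limma) and 1.33 ± 0.21 against ACTH (adjusted p = 0.00817). Its second probeset, 1389780_at, was at 0.91 ± 0.40 (adjusted p = 0.297) and 0.20 ± 0.40 (adjusted p = 0.849).

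Ace, which forms angiotensin II (1370028_at), was higher in SHR by 1.05 ± 0.18 against WKY (adjusted p = 0.0130, limma) and by 1.00 ± 0.18 against ACTH (adjusted p = 0.0136). The other probeset 1387791_at was at 0.03 ± 0.19 (adjusted p = 0.961) and -0.47 ± 0.19 (adjusted p = 0.230). The call against WKY was lost without WKY 1, WKY 3 or SHR 2 (0.0503, 0.0516 and 0.0618), and the call against ACTH without ACTH 1, ACTH 3 or SHR 2 (0.0740, 0.0566 and 0.0598). Vwf, the clotting factor carrier stored in endothelial cells, was lower in SHR than in WKY by -1.28 ± 0.21 (adjusted p = 0.0116). Its signals were 1105, 1197 and 1350 in WKY, 829, 1047 and 880 in ACTH and 366, 504 and 674 in SHR, without overlap between the groups. Without WKY 3 its adjusted p was 0.0505.

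Cav1 and Thbd were called higher than in WKY in both ACTH and SHR, each with 1 probeset and not with another. Cav1, the coat protein of caveolae, rose with the probeset 1370131_at by 1.52 ± 0.19 in SHR (adjusted p = 0.00268, limma) and 1.33 ± 0.19 in ACTH (adjusted p = 0.0108). That probeset had 25.3 to 35.1 in WKY and passed the filter only through its ACTH and SHR arrays. The probeset 1372111_at, with signals of 1640 to 3130 in WKY, was at -0.13 ± 0.21 (adjusted p = 0.793) and -0.05 ± 0.21 (adjusted p = 0.957). The ACTH call was lost without WKY 3, ACTH 1 or ACTH 2 (0.0503, 0.0626 and 0.0508). Thbd, the thrombin receptor that starts the protein C pathway (1375951_at), was at 0.90 ± 0.20 in SHR (adjusted p = 0.0489) and 1.00 ± 0.20 in ACTH (adjusted p = 0.0425), and the calls were lost without any 1 array other than ACTH 2 and SHR 1 respectively, at adjusted p of 0.0555 to 0.135 and 0.0515 to 0.190. Its other probeset 1368901_at was at 0.56 ± 0.17 (adjusted p = 0.146) and 0.55 ± 0.17 (adjusted p = 0.194).

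Lyve1, a hyaluronan receptor of lymphatic endothelium and of some macrophages, was higher in ACTH than in WKY by 1.84 ± 0.28 (adjusted p = 0.0128, limma), from 27.4 to 46.7 in WKY and 98.3 to 153 in ACTH. The call was lost without WKY 1, WKY 3, ACTH 1 or ACTH 2 (0.0570, 0.0577, 0.0657 and 0.0592). With scan day as a block the difference was 0.68 (adjusted p = 0.667), and with the GAPDH ratio as a covariate 2.50 (adjusted p = 0.0691). Cxcl12, a chemokine of the vessel wall (1388583_at), was higher in SHR than in ACTH by 1.23 ± 0.21 (adjusted p = 0.0117), with 770 to 839 in SHR, 331 to 361 in ACTH and 307 to 588 in WKY. Its other probeset 1369633_at was at -0.42 ± 0.22 (adjusted p = 0.354). Without ACTH 3 or SHR 2 the adjusted p of the first was 0.0514 and 0.0523. Sparcl1, a secreted matrix protein, was at 0.11 ± 0.14 for SHR against WKY (adjusted p = 0.741).

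**Figure D4:**
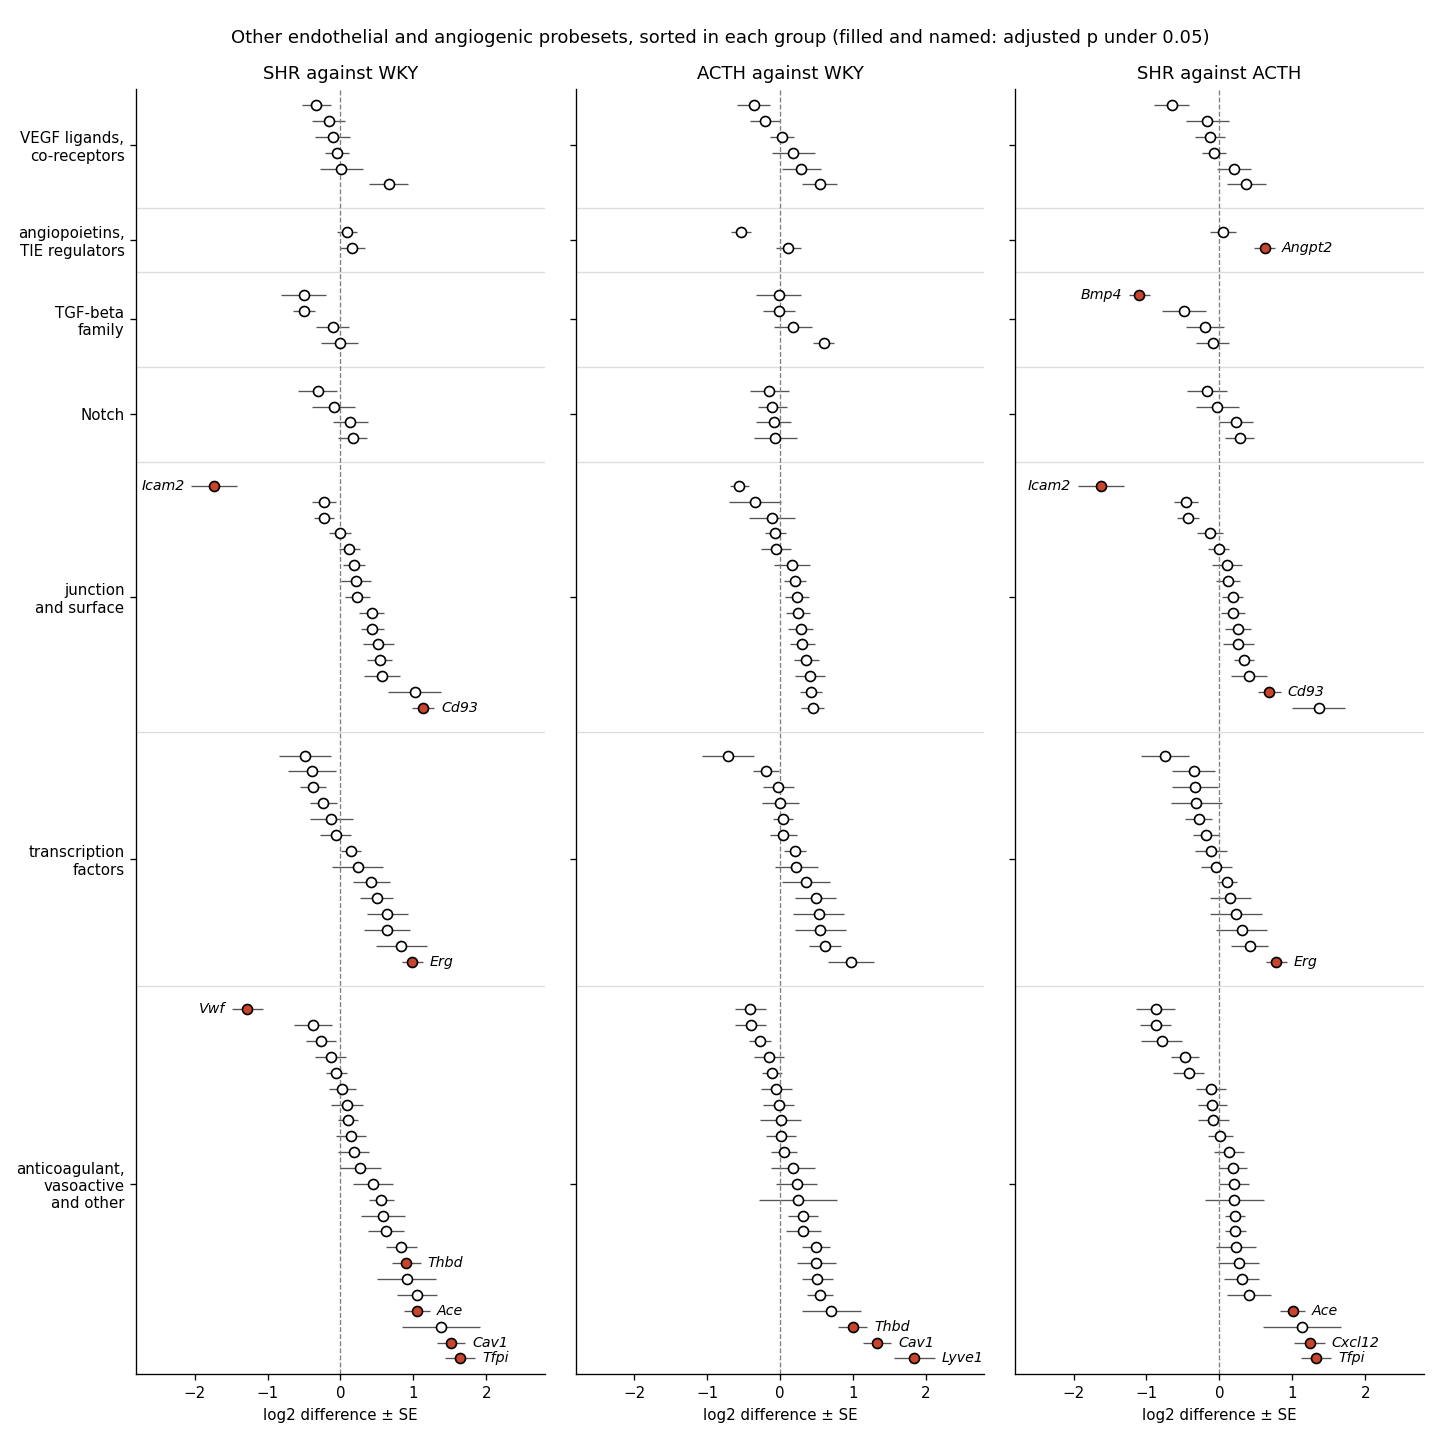
Log2 differences ± SE (x axis) of the 68 kept probesets of other endothelial and angiogenic genes in the 3 comparisons, grouped by role and sorted within each group, n = 3 arrays per group. Filled, named points passed an adjusted p of 0.05: 8 for SHR against WKY, 3 for ACTH against WKY and 8 for SHR against ACTH. Those are 11.8%, 4.41% and 11.8%, beside 2.04%, 1.21% and 3.40% of all kept probesets. None is a VEGF ligand or co-receptor (6 kept probesets) or a Notch probeset (4 kept).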

How the data were processed

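Total RNA of pooled arteries was amplified through 2 rounds and hybridised to 9 RAE230A arrays. The authors computed the deposited intensity values with MAS5 and scaled each array to a common target; scanner experiment files gave only scan days. Detection calls were not used here, so the number of probesets that the study kept was taken by the third-highest signal. Symbols came from the platform annotation (10379 of 10412 gene identifiers were found in RefSeq, 0 symbols changed). A single model of the 3 groups was fitted to log2 signals with limma 3.58.1 in R 4.3.3 (lmFit, eBayes, 6 residual and 4.44 prior degrees of freedom), two-sided, with Benjamini-Hochberg adjustment, and the procedure was tested on simulated data. Intervals are 95%. Named genes were every member probeset, the 3 genes closest to each member by Pearson's r, and of the other list those called in any comparison and at most 3 bright uncalled genes per group. The members and lists were chosen with earlier results of these data known. Marker sums used the brightest probeset of each gene. The 21 alternatives were other filters, normalizations (quantile, median centring), an offset of 16, a variance trend, array weights, the methods' contrasts without moderation, the groups compared alone, the GAPDH 3'/5' ratio, scan day and replicate number as blocks, and each of the 9 arrays left out. The number of arrays limits the precision.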

Additional observations from a re-analysis of the deposited data

How the results depend on the processing

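The number of the 7 member probesets called for SHR against WKY, 2, was 1 over all non-control probesets, with the groups compared alone and when the GAPDH ratio was a covariate, and 0 with the methods' contrasts without moderation and with scan day as a block, 3 with median centring, the offset of 16 or a variance trend, and 1 to 2 with any 1 array left out. For ACTH against WKY the 0 calls became 1 with array weights (Vegfa, 1.05) and remained 0 without any 1 array. For SHR against ACTH the 1 call became 0 over all non-control probesets, with the methods' contrasts and with scan day as a block. It became 2 with the groups compared alone, an offset of 16, median centring or quantile normalization, and 3 with array weights, and was 0 to 2 without any 1 array. Of the other endothelial probesets the 8 calls for SHR against WKY became 3 over all non-control probesets, 5 at a mean signal of at least 100, 4 with the methods' contrasts, 0 with the GAPDH ratio and 1 with scan day, and 4 to 9 without any 1 array. The 3 calls for ACTH against WKY became 1 at a mean signal of at least 100, 6 with array weights and 0 over all non-control probesets, with the methods' contrasts, the GAPDH ratio or scan day, and 0 to 3 without any 1 array. The 8 calls for SHR against ACTH became 1 over all non-control probesets, 2 with the methods' contrasts, 1 with scan day, 12 with array weights and 10 with the offset, the variance trend or the GAPDH ratio, and 3 to 8 without any 1 array. The Flt1 probeset did not pass a mean signal of at least 100. Without any 1 array its calls still rest on the filter applied to all arrays, for which it had to be higher in SHR.

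Signs changed with scan day as a block, with single arrays left out, with the GAPDH ratio and with quantile normalization. With scan day they changed for Flt1 (-0.45) and Tie1 (-0.59) for ACTH against WKY and for Pecam1 for SHR against ACTH (-0.21). For SHR against WKY they changed for Tie1 (-0.13), Eng (-0.41), Ace 1387791_at (-0.27) and Tfpi 1389780_at (-0.0535). Cav1 1372111_at went to 0.29 in SHR and 0.35 in ACTH with scan day. With the GAPDH ratio Eng went to 0.11 for ACTH against WKY, and Vegfa (-0.0139) and Sparcl1 (-0.0197) for SHR against WKY. Sparcl1 was at -0.0473 with quantile normalization. Without 1 array the range was -0.14 to 0.19 for Eng, -0.14 to 0.22 for Ace 1387791_at and -0.35 to 0.12 for Cav1 1372111_at in SHR, and -0.0890 to 0.24 for Tie1 and -0.27 to 0.20 for Cav1 1372111_at in ACTH. The cause was not tested. With scan day as a block SHR against WKY rests on WKY 2 alone.

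Replicate numbers did not pair the arrays, since deviations of same-numbered arrays from their group means correlated at -0.07 to 0.13. With the replicate block 2, 0 and 1 member probesets were called for SHR against WKY, ACTH against WKY and SHR against ACTH, and 7, 2 and 8 other probesets.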
